A study of Mus musculus with 4 samples.

Results

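The apolipoprotein L genes described here are Apol9a, Apol9b, Apol7c, Apol8 and Apol10b, 5 rows of a mouse gene table of 54532 rows. They were chosen by their gene names, as a family in which Apol9a and Apol9b had already been seen to differ between ginsenoside Rb1 and vehicle in these same libraries. The values of that contrast are therefore a description for the 5 genes, and no test of theirs is given.

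RNA was sequenced in bulk from DC2.4, an immortalised line of murine dendritic cells kept in RPMI-1640 medium with fetal bovine serum and antibiotics. The vehicle group had 2 libraries after 24 h with vehicle alone. The Rb1 group had 2 libraries after 24 h with 10 uM ginsenoside Rb1, a saponin of ginseng. No genetic change is given for either group, the vehicle itself is not named, and as DC2.4 is a single line, the replicates are separate samples of the same cells. In bulk RNA, fewer cells of a type and less RNA per cell cannot be told apart.

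APOL proteins bind membranes through amphipathic helices and, despite the family's name, are mostly found inside cells and not on lipoproteins. The best known member is human APOL1, a pore-forming protein of serum that kills African trypanosomes. In mice the family has grown into a cluster of related genes on chromosome 15. Interferons induce mouse Apol9a and Apol9b, whose products have been reported to bind prohibitin, phosphatidylethanolamine and proteins of the LC3 and GABARAP group. Mouse APOL7C has been reported to permeabilise phagosomes in dendritic cells, a step towards presenting antigen from outside the cell on MHC class I.

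Apol9a and Apol9b are near copies, and the stretch below shows where a read can tell them apart. It is the window of 60 coding bases with the most differences between them. It runs from coding base 494 to 553 and lies in exon 3 of 3 in both genes. Both sequences are from the GRCm38 genome, at chr15:77404613-77404672 on the minus strand for Apol9a and at chr15:77735499-77735558 on the plus strand for Apol9b. Capitals mark the 6 bases that differ.
Apol9a: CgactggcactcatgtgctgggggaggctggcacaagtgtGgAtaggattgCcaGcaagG
Apol9b: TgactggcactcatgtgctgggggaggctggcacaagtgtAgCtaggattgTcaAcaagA

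Over their whole coding length of 930 bases, the genes differed at 14 bases and were 98.5% identical, with a longest identical run of 446 bases. Of all stretches of 100 bases in the Apol9a transcripts, with the retained-intron transcript left out, 40.0% occurred unchanged in Apol9b, and of those in Apol9b 36.7% occurred in Apol9a. At 50 bases the shares were 55.3% and 52.3%, and at 150 bases 24.6% and 22.5%. Reads from such stretches fit both genes equally well, and how they were counted is not given, so the level of each copy is uncertain. Their sum does not depend on how shared reads were divided between the copies, but would miss reads dropped as ambiguous. Apol8 shared no stretch of 50 bases with another Apol gene that has a protein-coding transcript. Apol7d and Apol10c-ps have no such transcript and were not compared. Apol7c shared 11.9% of its 50-base stretches and Apol10b 6.11%, and at 100 bases the shares were 2.7% and 0%.

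The promoters were examined because interferon signalling acts through a short DNA element, the interferon-stimulated response element (ISRE), to which a complex that holds STAT2 and IRF9 binds. RefSeq (GRCm38.p6) lists promoters of 300 bases, from 250 before to 50 after a RefSeq start, for all 5 genes. Apol9a and Apol9b each have more than a single entry, with starts that differ from the gene coordinates printed below. The letters searched were GAAA, any 2 bases and GAAA again, on both strands, so that a match on the other strand reads TTTC, any 2 bases and TTTC, and matches may overlap. A match was found in 4 of the 5 genes, all but Apol8, and in 1131 of 32851 listed promoters, which is 3.44%. Here and below, a gene is counted if any of its entries holds a match, whereas shares of listed promoters are over single entries. Capitals mark the matches, given with 25 bases on either side. They lie at chr15:77411099-77411164 (minus strand, Apol9a), chr15:77729010-77729075 (plus strand, Apol9b), chr15:77533330-77533395 (minus strand, Apol7c) and chr15:77596095-77596154 (minus strand, Apol10b).
Apol9a: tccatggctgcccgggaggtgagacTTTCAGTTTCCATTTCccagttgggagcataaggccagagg
Apol9b: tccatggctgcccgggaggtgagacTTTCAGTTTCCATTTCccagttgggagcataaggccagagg
Apol7c: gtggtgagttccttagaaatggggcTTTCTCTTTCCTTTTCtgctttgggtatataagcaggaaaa
Apol10b: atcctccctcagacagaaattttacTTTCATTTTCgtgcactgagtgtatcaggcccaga

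Apol9a, Apol9b and Apol7c each held 2 overlapping matches in 16 bases, and Apol10b held 1. The Apol9a and Apol9b windows are the same letter for letter, and over all 281 bases that could be aligned between their promoters, 281 were identical. Across the wider family, 8 of 11 Apol genes with a listed promoter held a match. Among other lists used below, 11 of 18 type I interferon-stimulated genes with an entry held one, 7 of 14 genes responsive to interferon-gamma, and 0 of 11 apolipoproteins of lipoproteins. Another element searched on both strands was GAS (TTCNNNGAA), found in 8.3% of listed promoters and in none of the 5 genes. The kappaB letters, GGGA, any base and TTTCC on either strand, were in 0.411% of listed promoters and in none of the 5. A match is a description of the letters, and Apol7c, with 2 matches, had no reads in any library.

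Total counts lay between 17829784 and 18641021 per library, with reads on 18762 to 19015 genes. Of the marker genes of the labelled cell type, Cd74, the invariant chain of MHC class II, reached between 9599 and 17768 counts across the libraries of both groups. Itgax, which encodes CD11c, went from 461 and 509 counts with vehicle to 71 and 60. Flt3, Clec9a and Batf3, which mark conventional dendritic cells, stayed at or below 5 counts, and H2-Ab1 at or below 15. All 5 tested markers of macrophages fell with Rb1, though Cd68 was not called with the trend of fold change on gene length removed, and 36.3% of all tested genes were called lower (edgeR). The sum of the macrophage markers went from 1740 and 1767 CPM (counts scaled to the normalised size of the library) to 1067 and 1064. The sum of 14 dendritic cell markers, to which Cd74 contributed much, went from 1525 and 1534 CPM to 898 and 865 CPM. Of 9 tested members, 7 were lower and 2, Zbtb46 and Sirpa, higher. Sirpa was not called without either Rb1 replicate or with the length trend removed, and Cd86, one of the 7, was not called without either Rb1 replicate or with library totals. Lymphocyte markers summed to at most 0.297 CPM, with 3 of 7 at 0 counts. Those of stromal, epithelial and endothelial cells summed to 3.11 and 4.94 CPM with vehicle and to at most 0.5 CPM in either library with Rb1, with Epcam and Krt8 at 0 and Pecam1 lower. The part of these shifts in the Apol values was not tested.

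Apol9a (ENSMUSG00000057346) lies on chromosome 15 at chr15:77403789-77411135 on the minus strand, in the GRCm38 coordinates of the deposited table. It had 1706 and 1617 counts in the vehicle libraries and 20 and 24 counts in the Rb1 libraries. The groups lay far apart, and the replicates of each group lay close together. The mean was 99.1 ± 4.19 CPM with vehicle and 1.12 ± 0.169 CPM with Rb1 (SD, n = 2), so Apol9a was 88.2-fold lower with Rb1, a log2 fold change of -6.46 (SE 0.14).

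Apol9b (ENSMUSG00000068246) lies at chr15:77729039-77736382 on the plus strand. Its vehicle libraries held 2013 and 2048 counts, its Rb1 libraries 33 and 35. As with Apol9a, both vehicle libraries stood far above both Rb1 libraries. The mean was 121 ± 0.939 CPM with vehicle and 1.73 ± 0.111 CPM with Rb1 (SD, n = 2), which is 69.9-fold lower with Rb1, a log2 fold change of -6.13 (SE 0.12).

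Summed over both copies, the level was 220.3 ± 3.26 CPM with vehicle and 2.85 ± 0.280 CPM with Rb1 (SD, n = 2), or 77.3-fold lower (log2 fold change -6.27, SE 0.11). The pair made up 99.0% and 99.2% of the counts of all 14 Apol rows in the vehicle libraries and 93.0% and 96.7% in the Rb1 libraries. By counts, Apol9b ranked 1792 and 1756 among all 54532 rows in the vehicle libraries, and Apol9a 2143 and 2279. With Rb1, Apol9b ranked 11212 and 11119 and Apol9a 11887 and 11606. Of the 13518 tested genes, between 83.1% and 87.0% had fewer counts than these copies with vehicle, and between 11.5% and 17.5% with Rb1.

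The other 3 members were at or near the limit of detection. Apol8 (ENSMUSG00000056656, chr15:77747798-77757003, minus strand) had 11 and 2 counts in the vehicle libraries, against 2 and 0 after Rb1. Its groups met at 2 counts, and a single vehicle library held most of its reads. The ratio of vehicle to Rb1 in summed counts, corrected for library size, was 7.64, which rests on these few reads and is a description only. Apol10b (ENSMUSG00000050014, chr15:77583819-77596125, minus strand) had 0 and 1 counts in the libraries of either group, so its groups coincided. Apol7c (ENSMUSG00000044309, chr15:77524852-77533316, minus strand) had 0 counts in all 4 libraries, which allows up to 3 counts per library, or between 0.15 and 0.18 CPM. Thus 4 of the 5 members had a read, and 2 passed the filter on low counts.

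The response to Rb1 was broad, and it is the background for the counts that follow. Of all 13518 tested genes, 36.3% were called lower and 35.7% higher (edgeR quasi-likelihood test, Benjamini-Hochberg adjusted p under 0.05), 72.0% in either direction. In 43.3% of all tested genes both Rb1 libraries lay below both vehicle libraries, as in Apol9a and Apol9b, and in 43.0% both lay above. As the members were chosen on this contrast, nothing is read from these shares for them. A log2 fold change below -6 was found in 99 genes, or 0.732% of those tested, and from the most lowered gene down Apol9a stood at rank 86 and Apol9b at rank 96.

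**Figure D1:**
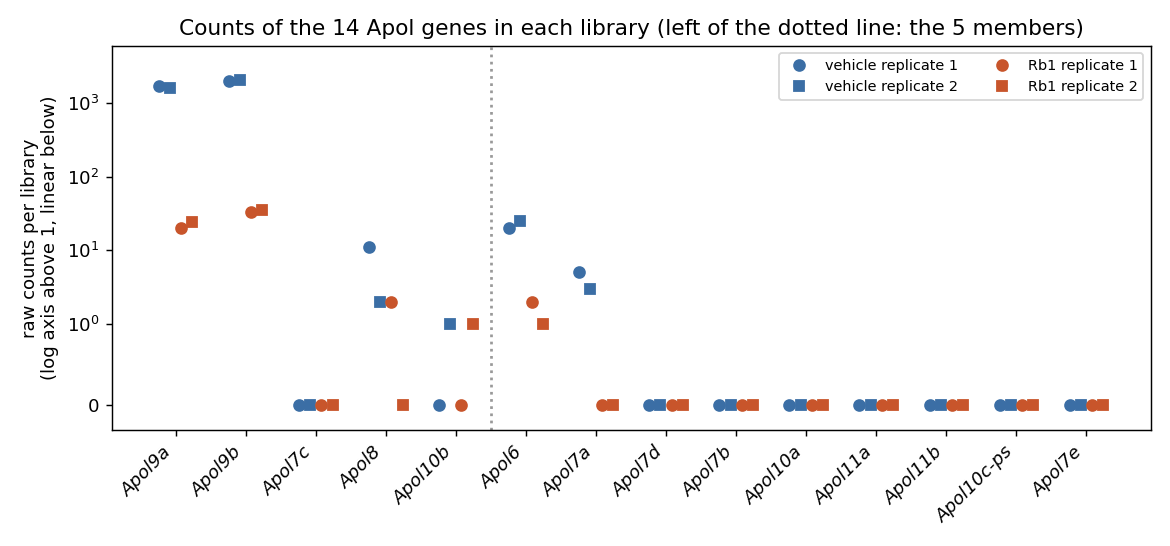
Raw counts (vertical axis, log scale above 1 and linear below) of the 14 Apol genes (horizontal axis) in each of the 4 libraries, with the 5 members left of the dotted line. Apol9a and Apol9b lie between 1617 and 2048 counts in the vehicle libraries and between 20 and 35 in the Rb1 libraries, while all other Apol genes stay at or below 25 counts.

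The division of reads between the copies was next compared. Apol9a took 45.9% of the summed counts in vehicle replicate 1 (95% Wilson interval 44.3 to 47.5%) and 44.1% in vehicle replicate 2 (42.5 to 45.7%). With Rb1 its share was 37.7% (25.9 to 51.2%) in replicate 1 and 40.7% (29.1 to 53.4%) in replicate 2. The Rb1 shares were lower than both vehicle shares, yet their intervals held both vehicle values, so a change in the balance of the copies was not detectable at 53 and 59 summed counts.

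Per length, the copies looked less alike in the deposited FPKM (fragments per kilobase of gene length, scaled to depth). Apol9b had an FPKM of 65.3 and 66.6 with vehicle and 0.905 and 0.990 with Rb1. Apol9a had an FPKM of 16.9 and 16.1 with vehicle and 0.168 and 0.208 with Rb1. Apol9b was thus 3.86 and 4.14 times Apol9a with vehicle and 5.39 and 4.77 times with Rb1 on this scale. The deposited gene length is 5953 bases for Apol9a and 1821 for Apol9b. That of Apol9a includes 1 retained-intron transcript, and without it the exons add up to 1807 bases. At this length the Apol9a FPKM would be 55.8 and 53.0 with vehicle and 0.553 and 0.684 with Rb1. Apol9b was then 1.17 and 1.26 times Apol9a with vehicle and 1.64 and 1.45 times with Rb1. The gap of about 4 between the copies in the deposited FPKM with vehicle therefore rests mainly on the length assigned to Apol9a. The FPKM ratio of vehicle to Rb1 within a gene does not depend on that length. Removing the trend of fold change on gene length does use the deposited lengths. That fit gave log2 fold changes of -6.73 for Apol9a and -5.72 for Apol9b.

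**Figure D2:**
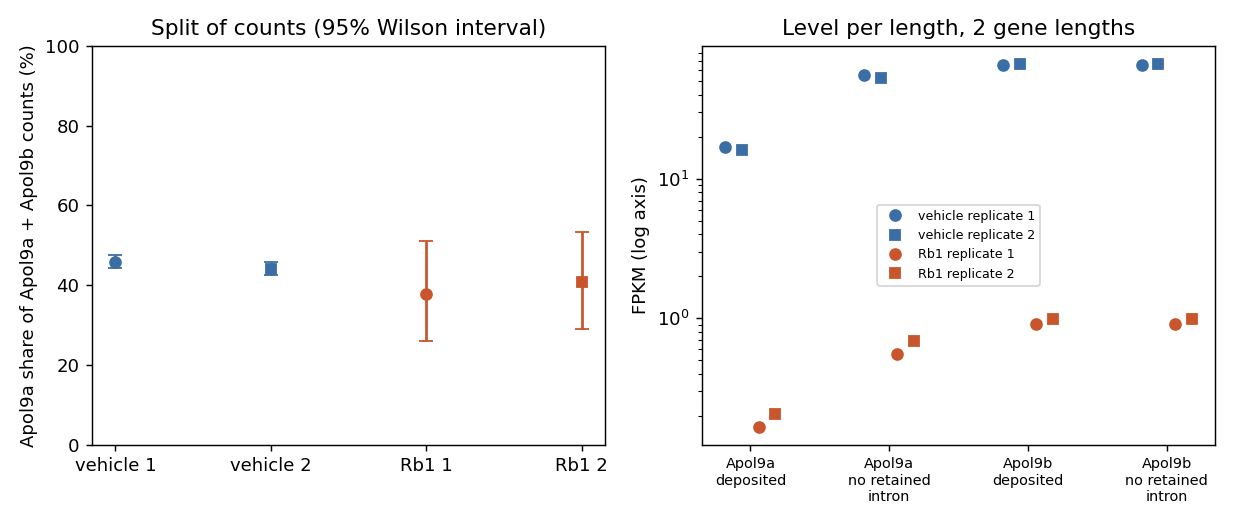
Left, the Apol9a share of the summed Apol9a and Apol9b counts (percent) in each library, with 95% Wilson intervals. Right, FPKM on a log axis for both genes at the deposited length and at the length without retained introns, each point being a library. The Apol9a values move closer to those of Apol9b once the retained intron is left out, and stay below them.

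The wider family has 9 more rows. Apol6 (ENSMUSG00000033576, chr15:77044729-77057106, plus strand) was the only one of them that passed the filter on low counts. It passed only through its vehicle libraries, so a rise could hardly have been found, and its fall is a description. It went from 20 and 25 counts to 2 and 1, with no overlap of the groups. This is a vehicle to Rb1 ratio of 17.6 (exact 95% interval 5.66 to 88.7, counting error only) and a log2 fold change of -4.02 (SE 0.61). Apol6 overlaps Mb, the myoglobin gene, on the opposite strand. Mb went from 41 and 21 counts to 3 and 11 (log2 fold change -2.36, adjusted p = 0.00262), and as strand use in the counting is not given, reads of the overlap cannot be told apart.

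Apol7a, the gene most like Apol7c in coding sequence among those with a read (80.1% identical), had 5 and 3 counts in the vehicle libraries and none after Rb1, at or near the limit of 3 counts. Apol7b, Apol7d, Apol7e, Apol10a, Apol11a, Apol11b and the pseudogene Apol10c-ps had 0 counts in all 4 libraries. Apold1, a gene on chromosome 6 with a domain like that of APOL proteins, was looked at after its values were seen. It went from 253 and 295 counts to 122 and 111 and was 2.76-fold lower, a log2 fold change of -1.47 (SE 0.15).

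The cluster was compared with its neighbours to see whether the stretch of chromosome 15 as a whole was lower with Rb1. The 13 Apol rows there span 712.3 kb, and 62 other rows start within 500 kb of that span, of which 23 had 0 counts. Of 29 tested neighbours, 11 fell, 8 rose and 10 did not pass the test, with a median log2 fold change of -0.18, against -0.01 over all tested genes and 36.3% of genes called lower. The nearest tested gene beyond Apol8 was Myh9, which encodes non-muscle myosin heavy chain. It went from 6230 and 7364 counts to 12597 and 11689 and rose (log2 fold change 0.60, SE 0.09, adjusted p = 8.08e-05). With the trend of fold change on gene length removed, the rise of Myh9 was no longer called. Txn2, the mitochondrial thioredoxin gene next to it, fell slightly, by 0.44 on the log2 scale (adjusted p = 0.000186).

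On the other side of the cluster, Zfp647 and 1110038F14Rik had log2 fold changes of -0.70 and -0.23 and were not called. Rbfox2, a splicing regulator that lies inside the cluster between Apol6 and the rest, had 1187 and 1461 counts in vehicle libraries, against 1364 and 1387 in Rb1 libraries, and its log2 fold change of -0.18 did not pass the test. It was called lower with the length trend removed (-0.64, adjusted p = 6.2e-06). Leaving out vehicle replicate 1 also gave a lower call (-0.32, adjusted p = 9.16e-07). The neighbours with the smallest p went both ways. Cpsf1, of the mRNA cleavage and polyadenylation complex, rose by 1.57 on the log2 scale (adjusted p = 1.4e-08), and the DNA helicase gene Recql4 rose by 1.55 (adjusted p = 7.93e-08). Ncf4, a subunit of the phagocyte NADPH oxidase, fell by 1.60 (adjusted p = 1.63e-08), and the zinc transporter gene Slc39a4 fell by 0.94 (adjusted p = 3.17e-07). No tested neighbour fell as far as Apol6, Apol9a or Apol9b. Without normalization beyond library totals, 6 neighbours were lower and 12 higher, beside 27.1% of all tested genes called lower and 45.3% higher. The median of all tested genes then moved from -0.01 to 0.23.

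**Figure D3:**
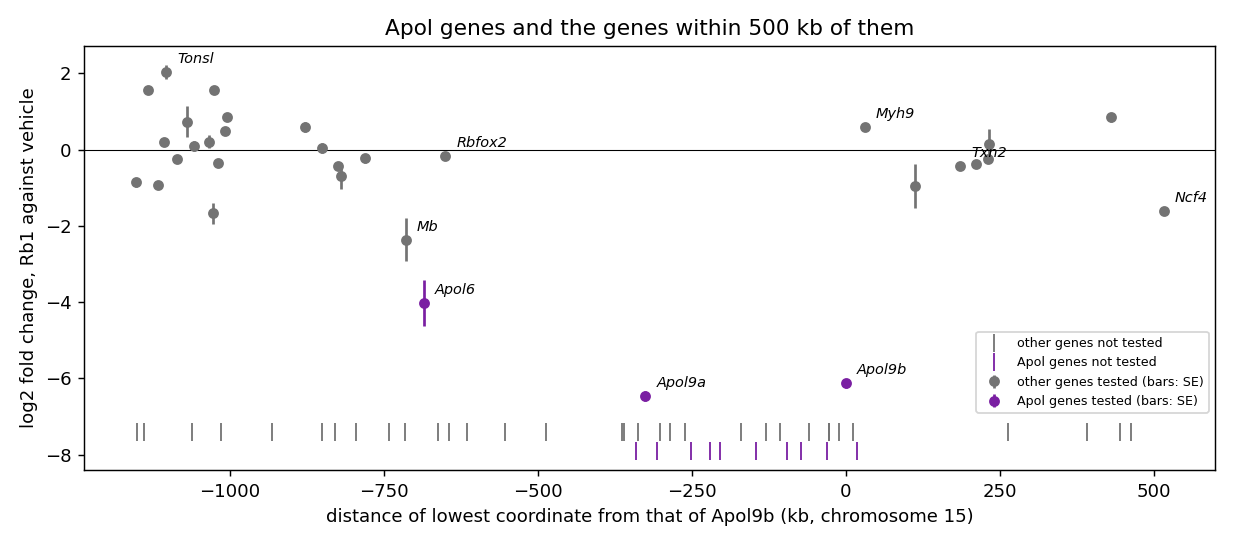
Log2 fold change of Rb1 against vehicle (vertical axis, bars are SE) for genes of the Apol cluster and within 500 kb of it, by distance from Apol9b in kb (horizontal axis). Ticks at the bottom are genes with too few counts to test. Apol9a, Apol9b and Apol6 lie below -4, and the tested neighbours are spread around a median of -0.18.

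Likeness of profile over the 4 libraries was measured by the root mean square difference of log2 CPM, each gene centred on its own mean. The genes most like the members were sought among tested protein-coding genes, leaving out Gm, Rik, pseudogene and accession-like names. For Apol9a they were Cxcl3, a neutrophil chemokine (0.0883), Acp5, an acid phosphatase of osteoclasts and macrophages (0.101), and Arg1, the arginase of alternatively activated macrophages (0.162). For Apol9b they were the cytokine gene Il1b (0.0736), Cxcl3 (0.111) and Mrc1, the mannose receptor gene (0.140). Cxcl3 had 9791 and 8881 counts with vehicle, and its log2 fold change was -6.26, that of Il1b -6.05, that of Acp5 -6.40 and that of Arg1 -6.66. Mrc1 had no count with Rb1, so its closeness depends on the constant added before logs were taken. With 4 libraries in 2 groups, such a likeness reflects mostly the size of the difference between the groups.

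Interferon signalling was then followed from ligand to target, since interferons induce Apol9a and Apol9b. Of 21 interferon ligand genes, 18 had 0 counts in every library and none passed the filter on low counts. Ifnb1, which encodes interferon-beta, had 16 and 8 counts in the vehicle libraries, against 2 and 1 after Rb1. Its vehicle libraries lay above its Rb1 libraries, at 0.717 ± 0.341 CPM against 0.0758 ± 0.0342 CPM (SD, n = 2). Ifng, the gene of interferon-gamma, had 5 counts in vehicle replicate 1 and 0 in the other libraries. An edgeR test without the count filter called 1 ligand, Ifnb1, lower (log2 fold change -3.11, adjusted p = 0.00168), as did tests on FPKM. Ifnb1 passed the FPKM filter of 0.5 only through its vehicle libraries, at 1.26 and 0.631 against 0.133 and 0.0687 with Rb1. These calls rest on the same few reads, so they are a description and not separate support.

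Among 12 tested genes of interferon receptors and JAK-STAT signalling, 6 fell, 2 rose and 4 did not pass the test, beside 36.3% of all tested genes called lower and 35.7% higher. The median log2 fold change was -0.29. Of the proteins that bind the ISRE, Irf9 fell by 1.08 (SE 0.08, adjusted p = 2.62e-07) and Stat2 fell by 1.38 (SE 0.11, adjusted p = 5.37e-07) on the log2 scale. Irf9 went from 2244 and 2474 counts to 1351 and 1272, and Stat2 from 1437 and 1784 to 785 and 669, with no overlap of the groups. Of the receptor chains, Ifngr2 fell by 0.92 (adjusted p = 6.6e-07) and Ifnar2 by 0.80 (adjusted p = 8.5e-06). Ifnar1, the partner chain of Ifnar2, rose by 0.30 (adjusted p = 0.0104), and the kinase gene Tyk2 by 0.31 (adjusted p = 0.00416). Neither rise was called with the length trend removed or without Rb1 replicate 1.

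Upstream, the TRIF arm of the Toll-like receptors TLR3 and TLR4 leads to production of interferon-beta. Of its 10 tested genes, 8 fell, 1 rose and 1 did not pass the test, beside 36.3% of all tested genes called lower and 35.7% higher. The median log2 fold change was -0.49. Ikbke, a kinase that activates IRF3, fell by 1.92 (adjusted p = 4.98e-09), from 1737 and 1885 counts to 566 and 558. Cd14, the co-receptor for lipopolysaccharide, fell by 1.38 (adjusted p = 5.29e-08), Tlr3 by 1.86 (adjusted p = 2.23e-06) and Ly96, the MD-2 subunit of the TLR4 complex, by 1.57 (adjusted p = 5.81e-06). The adaptor gene Traf3 rose by 0.96 (adjusted p = 7.22e-06). With library totals, 5 of the 10 fell and 1 rose, beside 27.1% of all tested genes called lower and 45.3% higher.

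Of 25 type I interferon-stimulated genes, all tested, 25 fell and none rose, with a median log2 fold change of -2.56, beside 36.3% of all tested genes called lower. The list was chosen with results of these libraries known, so its direction is not independent evidence. Ifit3, which encodes a protein that binds viral RNA, went from 3820 and 3625 counts to 212 and 203 and fell by 4.40 (SE 0.09, adjusted p = 1.92e-11). Rsad2, the gene of the antiviral enzyme viperin, fell by 3.84 (SE 0.09, adjusted p = 3.75e-11), from 11471 and 12467 counts to 984 and 974. Zbp1, a sensor of Z-form nucleic acid, fell by 4.81 (SE 0.11, adjusted p = 4.19e-11), the most of the list. Usp18, a protease that removes ISG15 and restrains the receptor, fell by 3.01 (SE 0.07, adjusted p = 7.8e-11).

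Apol9a and Apol9b, at -6.46 and -6.13, thus lay below all 25 listed genes. As both the copies and the list were chosen with results of these libraries known, this order is a description only. The least lowered of the list was Oas2, at -0.25 (adjusted p = 0.0143), with 1026 and 978 counts in vehicle libraries, against 1012 and 965. It was not called with library totals or without either Rb1 replicate, and the other 24 remained called in each of these.

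Of 16 genes responsive to interferon-gamma, 14 were tested and 14 fell, beside 36.3% of all tested genes called lower, with a median log2 fold change of -2.53. This list too was chosen with results of these libraries known. Those with the smallest p were Gbp3, a guanylate-binding GTPase that fell by 4.07 (adjusted p = 4.79e-11), the chemokine gene Cxcl10, by 4.12 (adjusted p = 7.8e-11), Gbp2, which fell by 3.89 (adjusted p = 1.41e-10), and the GTPase gene Igtp, by 2.64 (adjusted p = 1.45e-09). Many genes of both lists respond to either interferon, so the lists do not tell the types apart.

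**Figure D4:**
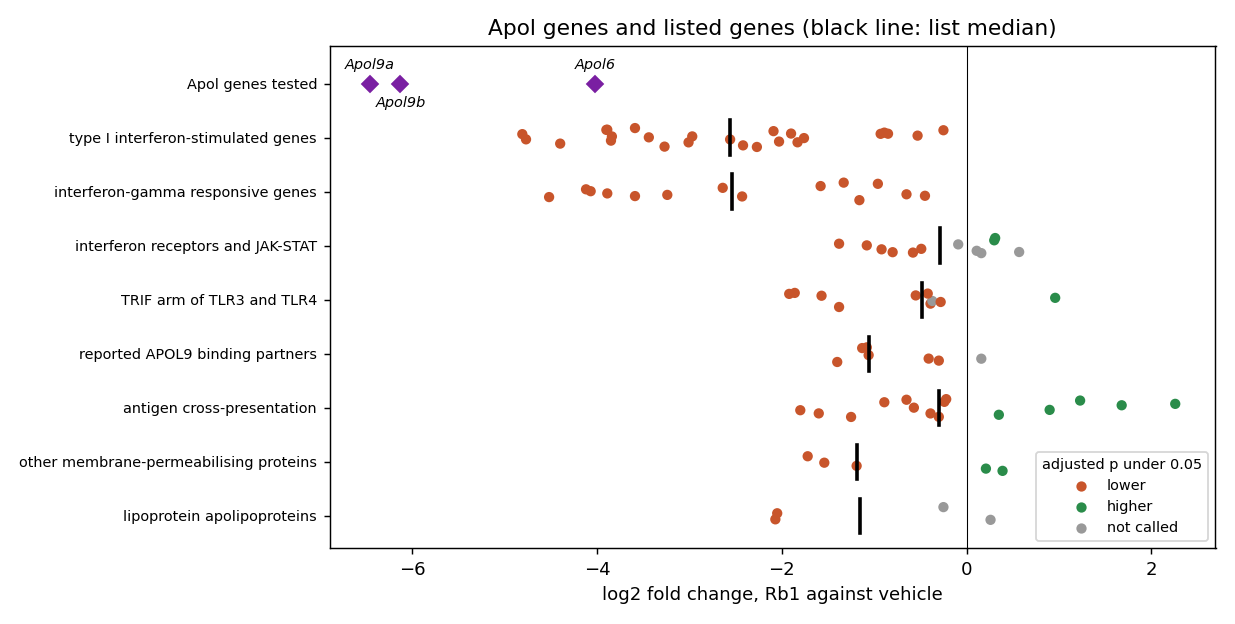
Log2 fold change of Rb1 against vehicle (horizontal axis) for the tested Apol genes and for each tested gene of 8 lists (rows), coloured by call. Black lines are list medians. Apol9a and Apol9b, chosen on this contrast, lie to the left of every listed gene, and the interferon-stimulated genes are all on the lower side.

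The proteins that APOL9 has been reported to bind were compared next. Of 7 tested genes, 6 fell, none rose and 1 did not pass the test, beside 36.3% lower and 35.7% higher over all tested genes. The median log2 fold change was -1.06. All 5 autophagy genes of the LC3 and GABARAP group fell. They were Map1lc3b, by 1.40 (adjusted p = 3.81e-08), Gabarap by 1.13 (adjusted p = 8.49e-08), Gabarapl2 by 1.08 (adjusted p = 1.75e-06), Map1lc3a by 1.06 (adjusted p = 8.2e-05) and Gabarapl1 by 0.30 (adjusted p = 0.00294). Gabarapl1 was not called with library totals, with the length trend removed or without Rb1 replicate 2. Map1lc3b went from 5037 and 4455 counts to 2127 and 2110. Of the prohibitin genes, Phb fell by 0.41 (adjusted p = 0.000227), though not with library totals, and Phb2 had a log2 fold change of 0.16 (adjusted p = 0.0702), which was called higher with library totals, with the length trend removed and without vehicle replicate 1.

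Genes of antigen cross-presentation, the process in which APOL7C has been reported to act, went in both directions. Of 15 tested among 17 listed, 10 fell and 5 rose, where 36.3% of all tested genes fell and 35.7% rose. The median log2 fold change of the list was -0.30. The NADPH oxidase genes Cyba and Ncf4 fell by 1.80 and 1.60 (adjusted p = 1.36e-08 and 1.63e-08), while Ncf1, of the same oxidase, rose by 0.90 (adjusted p = 6.95e-07). Lnpep, the endosomal aminopeptidase IRAP, rose by 1.23 (adjusted p = 8.14e-08), from 1033 and 1115 counts to 2932 and 2969. Batf3 and Clec9a had too few reads to test. Tap2, one of the 10, was not called with DESeq2, without the count filter or with the length trend removed. Erap1, one of the 5, was not called with the length trend removed. With library totals 6 of the list fell and 5 rose, where 27.1% of all tested genes fell and 45.3% rose.

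Other proteins that breach membranes were set beside the APOL genes. Of 5 tested among 8 listed, 3 fell and 2 rose, where 36.3% of all tested genes fell and 35.7% rose. The median log2 fold change of the list was -1.19. Mlkl, which executes necroptosis, fell by 1.72 (adjusted p = 1.17e-08). Mpeg1, the gene of the phagosomal pore protein perforin-2, fell by 1.19 (adjusted p = 1.15e-07), from 12563 and 13419 counts to 6986 and 6448. Ninj1, needed for plasma membrane rupture, fell by 1.54 (adjusted p = 1.9e-07). The gasdermin gene Gsdme rose by 0.39 (adjusted p = 0.026), a direction that turned to -0.35 (adjusted p = 0.0495) with the length trend removed. Gsdmd rose by 0.21 (adjusted p = 0.0364) but not with the replicate number as a block (adjusted p = 0.0612), and DESeq2 called neither gasdermin.

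Apolipoproteins of lipoproteins share the name but not the structure of the APOL family. Of 15 listed, 4 were tested and 6 had 0 counts. Of the 4, 2 fell and 2 did not pass the test, beside 36.3% of all tested genes called lower. Clu, which encodes the chaperone clusterin, went from 10880 and 10728 counts to 3097 and 3042 and fell by 2.05 (SE 0.07, adjusted p = 1.31e-09). Apof, a minor lipoprotein component, fell by 2.07 (SE 0.53, adjusted p = 0.00402) from 14 and 19 counts to 4 and 5, and it was not called without vehicle replicate 2 (adjusted p = 0.0572) or without Rb1 replicate 1 (adjusted p = 0.0506). Apoe, which carries lipid in plasma and is made by macrophages, had 95 and 111 counts in vehicle libraries, against 108 and 96 in Rb1 libraries (log2 fold change -0.25, adjusted p = 0.238).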

How the data were processed

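RNA of DC2.4 cells was sequenced from 2 vehicle and 2 Rb1 libraries. The authors deposited raw counts per gene and, for the same genes, FPKM; each FPKM value is the count per kilobase of gene length over a library constant of 0.9079 to 1.0894 times the total. The labels give no kit or read length, and strand use, aligner and counter are likewise not stated. GRCm39 and mm39 are the builds in the submitters' processing notes, but all 14 Apol rows and 98.1% of all rows have the coordinates of GENCODE M21 (GRCm38), which are the ones printed. In 27 rows, symbols turned into dates were restored from the gene ID.

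Counts were tested with edgeR 4.0.16 in R 4.3.3 (quasi-likelihood, TMM, filterByExpr, robust, two-sided, 2 residual degrees of freedom), and p-values of 13518 genes were adjusted by Benjamini-Hochberg and called under 0.05. CPM are TMM-normalised, and an SE is the log2 fold change over the square root of F. The script was also run on simulated data with far fewer and smaller changes than here, so that run does not cover so broad a response. Alternatives used DESeq2 1.42.0 and limma 3.58.1 (voom, and log2 of FPKM plus 1 or 0.1), other scalings and filters, the length trend, both copies summed, and each library left out. The replicate number stands in the labels' batch entry, so a fit with that number as a block was run as an alternative; the test itself has no block. Libraries with the same number deviated from their groups' means with a correlation of -0.0522. The labels call the replicates biological without saying what was separate, so p-values reflect only the spread of these samples. Floors of 3 counts and intervals cover counting error only, as reads are not independent molecules.

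Promoters are from RefSeq (GRCm38.p6) and coding sequences from GENCODE M21, aligned with Biopython 1.88. The members, lists and markers were chosen with earlier results of these data known. Genes named are all Apol rows, up to 4 called genes with the smallest p per list or its 2 with most counts where none was called, the nearest neighbours of the cluster, and 3 nearest profiles per tested member. Others named, such as Ifnar1, Tyk2, Traf3, Phb, Phb2, Gabarapl1, Oas2, Gsdmd, Ncf1, Apoe and Apold1, were added after their values were seen. Some genes that the rule would name are not reported here.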

Additional observations from a re-analysis of the deposited data

How the results depend on the processing

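Of 16 alternatives, 15 gave a value for each copy, and in these both copies stayed lower with Rb1. The log2 fold changes of Apol9a ran from -6.73 to -3.88, and those of Apol9b from -6.19 to -5.10. The -6.73 came with the length trend removed and rests on the deposited Apol9a length of 5953 bases. The -3.88 is on the log2(FPKM + 1) scale, where the pseudocount shrinks low values. Over 12 alternatives, Apol8 ranged from -5.80 to -0.15 and Apol10b from -2.39 to 2.26, as 0 to 11 reads allow. Of 396 gene counts, 362 stayed within 1.5 times. These include counts of 0 that stayed at 0 and the number of chosen members that were lower, so the share overstates stability. With library totals, 3662 genes were lower and 6128 higher, against 4909 and 4822, and the lower or higher counts became 6 lower around the cluster, 4 higher receptor genes, 5 lower TRIF genes, 1 higher APOL9 partner and 6 lower cross-presentation genes. Without a count filter, 2 other Apol genes (Apol6 and Apol7a) and 1 ligand were lower; with 1 CPM in 2 libraries, 1 lipoprotein gene was lower. DESeq2 called 0 membrane genes higher. On log2(FPKM + 1) and log2(FPKM + 0.1), 0 other Apol genes were lower, as Apol6 missed the FPKM filter of 0.5, and 1 ligand and 1 lipoprotein gene were lower and 1 membrane gene higher. With the length trend removed, alone or with the replicate block, 0 receptor genes, 1 partner and 1 membrane gene were higher. Leaving out 1 library gave 0 to 1 higher partners, 0 to 1 lower ligands, 0 to 4 higher receptor genes, 0 to 2 higher membrane genes and 1 to 3 lower lipoprotein genes. A lone library is there assumed to vary like the other group.

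With the replicate block, 1 membrane gene was higher, not 2, since Gsdmd was lost; Apol9a and Apol9b stayed at -6.46 and -6.13, and no other count of calls on these lists moved by over 1.5 times. Causes of these moves were not tested beyond those named. With 2 libraries per group and 20 to 35 reads per copy with Rb1, depth limits the split between the copies and every statement on Apol7c, Apol8 and Apol10b.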
